A study of Mus musculus with 91 samples.

Results

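The 5 genes described here encode the dopamine receptors Drd1, Drd2 and Drd3 and the adenosine receptors Adora1 and Adora2a of the mouse nucleus accumbens. They were chosen by Ensembl identifier, and all 5 were among the 14355 genes of the deposited count table. In the order above their identifiers are ENSMUSG00000021478, ENSMUSG00000032259, ENSMUSG00000022705, ENSMUSG00000042429 and ENSMUSG00000020178. The study sequenced mRNA bound to ribosomes (RiboTag), pulled down through a hemagglutinin-tagged ribosomal protein, Rpl22, that is switched on by Cre. Each sample held accumbens punches pooled from 2 mice over 10 weeks old kept in 12:12 light and dark. All mice carried the RiboTag allele. The D1 libraries came from mice of a Drd1-Cre line (22 male and 23 female libraries), and the D2 libraries from mice of an A2a-Cre line (23 male and 23 female libraries). Collection was at ZT 2, 6, 10, 14, 18 and 22, where ZT counts hours from lights on, so that 24 groups of cell type, sex and time held 3 or 4 libraries each.

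The Cre lines limit what the groups stand for. Tagged ribosomes came from whichever cells of the punch had expressed Cre under Drd1 or Adora2a control, and the pull-down can also carry RNA of other cells. In such bulk samples fewer cells expressing a gene and less RNA per cell cannot be told apart. The lines are built on Drd1 and Adora2a, so those genes also check the labels.

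Dopamine and adenosine act on the spiny projection neurons of the striatum through receptors with opposing effects on cyclic AMP. The D1 receptor and the A2a receptor raise cyclic AMP, whereas the D2, D3 and A1 receptors lower it. D1 receptors mark the direct-pathway neurons, and D2 and A2a receptors occur together on the indirect-pathway neurons, where they oppose each other.

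Total counts per library ranged from 6872165 to 24665262 (14296688 ± 3740182, SD, n = 91). Levels are given as CPM, counts scaled to TMM-adjusted library totals, and are compared for a gene between libraries, not between genes, because gene length was not used. Drd3 was the least counted member, with 35 to 239 reads per D1 library and 52 to 196 per D2 library. 3 male D1 libraries stood apart, with 205 to 789 genes at 0 against at most 3 in any other library. They were letter B at ZT10, letter B at ZT22 and letter D at ZT18. The letters A to E come from the sample titles, and the labels used here do not say what they stand for. The labels do not state that the libraries of a group came from separate mice, so p-values measure the spread between these libraries. Drd1 counts exceeded Adora2a counts in all 45 D1 libraries, with a log2 ratio of 1.15 to 2.78 (median 2.14). Adora2a exceeded Drd1 in all 46 D2 libraries, with a log2 ratio of -3.03 to -0.80 (median -1.76). No library went against its labelled cell type on this ratio.

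The upstream sequences of Drd1, Drd2 and Adora1 are printed because they stand for a gene higher in D1, a gene higher in D2 and a gene not called. All come from the RefSeq promoter table of build GRCm38.p6 and end at the base before the gene's annotated record. The Drd1 stretch is chr13:54055659-54055908 on the minus strand (250 bases, 64.0% G and C). That of Drd2 is chr9:49340153-49340359 on the plus strand (207 bases, 67.6%), shortened by 43 bases that lie inside the gene's record. That of Adora1 is chr1:134235458-134235707 on the minus strand (250 bases, 64.4%). Capitals mark the GC box, GGGCGG or its reverse complement CCGCCC.
Drd1: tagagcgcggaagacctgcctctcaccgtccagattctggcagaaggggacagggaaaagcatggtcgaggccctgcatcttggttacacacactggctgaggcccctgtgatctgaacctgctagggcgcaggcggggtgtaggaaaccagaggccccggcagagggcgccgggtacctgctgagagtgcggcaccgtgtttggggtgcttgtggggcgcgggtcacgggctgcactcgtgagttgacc
Drd2: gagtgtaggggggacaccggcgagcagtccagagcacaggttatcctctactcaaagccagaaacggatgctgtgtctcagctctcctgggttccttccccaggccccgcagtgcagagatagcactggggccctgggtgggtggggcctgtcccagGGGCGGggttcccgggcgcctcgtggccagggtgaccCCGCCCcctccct
Adora1: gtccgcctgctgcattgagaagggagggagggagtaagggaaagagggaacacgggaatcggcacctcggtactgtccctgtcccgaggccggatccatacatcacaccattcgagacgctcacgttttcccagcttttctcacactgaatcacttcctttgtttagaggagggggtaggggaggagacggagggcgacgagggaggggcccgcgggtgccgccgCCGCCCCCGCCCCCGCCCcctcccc
The Drd1 stretch held 0 GC boxes, that of Drd2 held 2 and that of Adora1 held 3. The table has a second window for Drd1 and for Adora1, both inside the gene's record and not printed, and there the counts were 1 for Drd1 and 0 for Adora1. The number of GC boxes thus depended on the start site chosen. Over all 32851 promoter windows of 250 bases in the table, 32.7% held a GC box on either strand and the median content of G and C was 52.4%. The E-box of clock factors, CACGTG, was in 6.02% of all windows and in none of the 3 stretches. Likewise TGACGT, the core of the cyclic AMP response element, was in 6.47% of windows and TATAAA, the TATA box, in 12.4%, and neither was in these stretches on either strand. Such matches describe letters only. The table's window of Drd3 starts within the gene's own record, and its content of G and C was 39.2%. For Adora2a no promoter window was available, so its sequence and motifs are not given. By the same build the gene records span chr13:54051183-54055658 (Drd1), chr9:49340360-49408177 (Drd2), chr16:43754015-43825982 (Drd3), chr1:134199215-134235457 (Adora1) and chr10:75316877-75334792 (Adora2a), and all 5 are protein coding.

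The first comparison asked how the receptors differ between D1 and D2 neurons. Drd1 and Drd3 were higher in D1 libraries, and Drd2 and Adora2a were higher in D2 libraries. Adora1 had nearly the same mean level in both. In all, 4 of the 5 genes passed the test (edgeR quasi-likelihood F-test, Benjamini-Hochberg over all genes, threshold 0.05), where 19.3% of the 14355 genes did. Of all genes, 9.44% were called towards D1 and 9.86% towards D2. With the letter as a block the same 4 genes were called, where 38.1% of all genes were. The median absolute log2 difference was 1.77 over the 5 receptors, which is the value of Drd1, and 0.09 over all genes tested. Drd1 and Adora2a are among the 4 genes called. The Cre lines that define the groups are built on these genes, so their differences serve as a check of the labels.

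Drd1, the receptor that couples dopamine to a rise in cyclic AMP, ranged from 167.4 to 440.1 CPM in D1 libraries (median 307.2) and from 60.8 to 105.2 CPM in D2 libraries (median 88.3). Its lowest D1 library lay above its highest D2 library, and over all genes 0.265% (38) had no overlap between D1 and D2 libraries. The means were 305.5 ± 60.6 CPM in D1 and 89.1 ± 10.0 CPM in D2 (SD, n = 45 and 46), a ratio of 3.43. The fitted difference, D1 minus D2, was 1.77 ± 0.05 on the log2 scale (SE, 95% interval 1.67 to 1.86, edgeR adjusted p = 3.80e-48). Only 9 of the 14355 genes had a larger difference towards D1 in this fit. The D2 mean was 29.2% of the D1 mean, so Drd1 was counted in every D2 library too.

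Drd2, which lowers cyclic AMP and is the target of classical antipsychotic drugs, ranged from 19.2 to 63.5 CPM in D1 libraries (median 38.6) and from 71.1 to 250.6 CPM in D2 libraries (median 121.5). The groups did not overlap, although the highest D1 and the lowest D2 library were close. Means were 40.7 ± 8.65 CPM in D1 and 140.8 ± 48.7 CPM in D2 (SD). The log2 difference was -1.79 ± 0.09 (SE, 95% interval -1.96 to -1.61, edgeR adjusted p = 2.29e-30), and 59 genes had a larger difference towards D2. The D1 mean was 28.9% of the D2 mean.

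Adora2a, the adenosine receptor of indirect-pathway neurons and a target of caffeine, had the largest difference of the 5. It ranged from 41.7 to 132.2 CPM in D1 libraries (median 69.4) and from 176.0 to 621.9 CPM in D2 libraries (median 297.0). Again no D1 library reached the lowest D2 library. Its means were 74.8 ± 20.1 CPM in D1 and 360.2 ± 135 CPM in D2 (SD), and the D2 mean was 4.82 times the D1 mean. On the log2 scale the difference was -2.27 ± 0.10 (SE, 95% interval -2.47 to -2.07, edgeR adjusted p = 2.43e-33), with 25 genes further towards D2.

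Drd3, a D2-type receptor known for its high level in the ventral striatum, was moderately higher in D1. It ranged from 3.42 to 20.8 CPM in D1 libraries (median 12.0) and from 5.08 to 10.5 CPM in D2 libraries (median 7.69). The groups overlapped: 12 of the 45 D1 libraries did not exceed the highest D2 library. Means were 11.9 ± 2.44 CPM in D1 and 7.82 ± 1.26 CPM in D2 (SD), a ratio of 1.52. The log2 difference of 0.59 ± 0.06 (SE, 95% interval 0.47 to 0.71) passed the test with an edgeR adjusted p of 5.83e-14. Drd3 was thus the dopamine receptor of the D2 type that was higher in D1 libraries, opposite in sign to Drd2.

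Adora1, the widespread inhibitory adenosine receptor, ranged from 73.2 to 164.6 CPM in D1 libraries (median 105.7) and from 60.6 to 163.2 CPM in D2 libraries (median 92.2). The 2 cell types covered almost the same range. The means were 107.0 ± 19.1 CPM in D1 and 106.8 ± 30.7 CPM in D2 (SD). The log2 difference was -0.00056 ± 0.07 (SE), with a 95% interval of -0.14 to 0.14 and an edgeR adjusted p of 0.996.

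**Figure D1:**
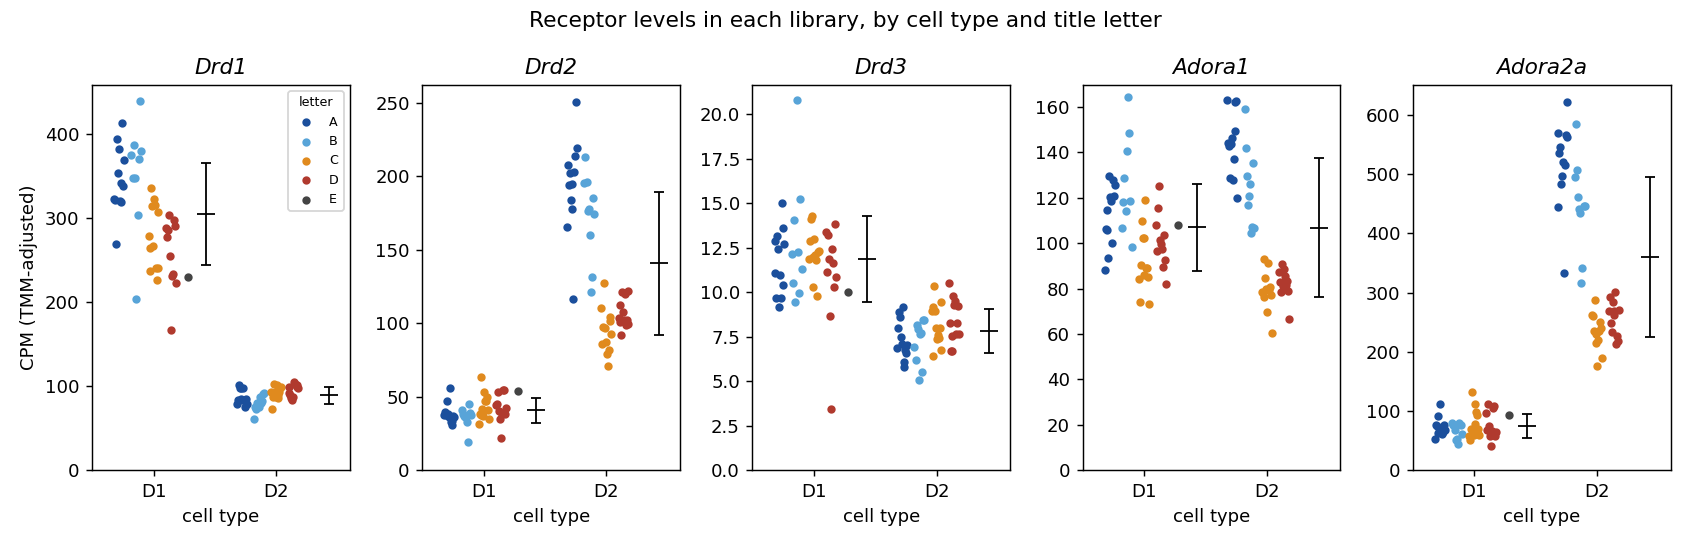
Level of each receptor in CPM in every library, D1 left and D2 right, with points coloured by title letter and bars for mean ± SD. For Drd1, Drd2 and Adora2a no D1 library overlaps a D2 library, and in D2 libraries letters A and B lie above C and D for Adora2a.

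The direction held in each sex at each time for the genes called. In all 12 combinations of sex and time the D1 and D2 libraries of Drd1, Drd2 and Adora2a did not overlap, as was the case for 0.550% (79) of all genes. The log2 ratio of D1 to D2 group means ran from 1.57 to 2.11 for Drd1, from -2.10 to -1.39 for Drd2 and from -2.72 to -1.87 for Adora2a. For Drd3 the D1 mean was higher in 12 of 12 combinations, and the libraries did not overlap in 10 of them, where 1.33% (191) of all genes had no overlap in at least 10. Adora1 was higher in D1 in 6 combinations and higher in D2 in 6, and its groups overlapped in all 12. Without the 3 male D1 libraries that stood apart, the D1 means were 309.8, 41.5, 11.6, 105.0 and 76.2 CPM for Drd1, Drd2, Drd3, Adora1 and Adora2a. Drd1, Drd2 and Adora2a again had no overlap then, where 0.404% (58) of all genes had none.

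Drd2 and Adora2a both marked D2 libraries, and the relation of their counts was itself compared because library size cancels in it. The log2 ratio of Adora2a to Drd2 counts was 0.86 ± 0.18 in D1 libraries and 1.34 ± 0.13 in D2 libraries (SD, n = 45 and 46). Values overlapped, from 0.42 to 1.2 in D1 and from 1.03 to 1.63 in D2. The difference, D1 minus D2, was -0.48 on the log2 scale (two-sided permutation test, p = 2.0e-05, the smallest that the 100000 resamples can give). Adora2a therefore differed between the cell types by more than Drd2 did. Within letters A, B, C and D the difference was -0.50, -0.51, -0.48 and -0.42. The D2 libraries came from a Cre line built on Adora2a, whereas neither line is built on Drd2. Whether this bears on the larger difference of Adora2a was not tested.

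**Figure D2:**
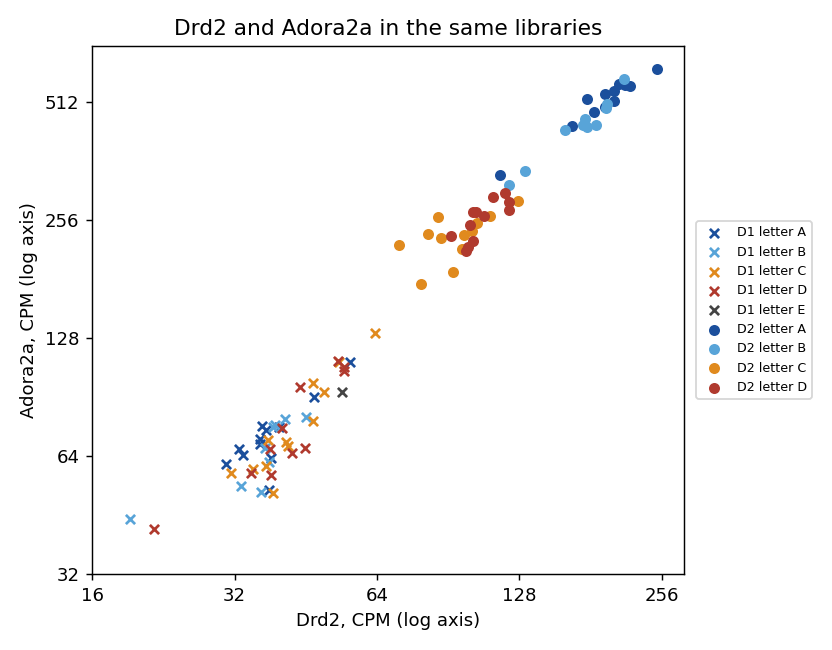
Adora2a against Drd2 in the same 91 libraries, in CPM on log axes, with crosses for D1, circles for D2 and colours for title letters. The libraries form separate D1 and D2 clouds, and within D2 letters A and B have higher medians of both genes than C and D, with overlap for Drd2.

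The size of the cell type difference depended on the title letter for most of all genes, the receptors other than Drd3 among them. A test of whether it differed between letters A to D called 4 of the 5 receptors, where 64.8% of all genes were called. Its edgeR adjusted p was 2.83e-07 for Drd1, 2.20e-11 for Drd2, 4.69e-08 for Adora1, 1.56e-10 for Adora2a and 0.105 for Drd3. This test and the fits within letters were added after the data were seen. All 5 genes were called in letters A, C and D alone and 4 of 5 in letter B alone. Of all genes, 48.3% were called in letter A, 48.3% in B, 55.9% in C and 54.3% in D.

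Drd2 and Adora2a differed most in letters A and B. The log2 difference of Drd2, D1 minus D2, was -2.33, -2.46, -1.12 and -1.32 in letters A, B, C and D alone. For Adora2a it was -2.82, -2.91, -1.58 and -1.72. Both genes had the same order of letters, from B to A, D and C by size. Drd1 ran from 1.98 in letter A and 1.95 in B to 1.61 in C and 1.47 in D, and Drd3 from 0.92 in B to 0.36 in D.

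Adora1 changed sign between letters. It was lower in D1 within letter A (-0.36 ± 0.05, SE, edgeR adjusted p = 2.19e-05). Within letters C and D it was higher in D1, by 0.22 ± 0.06 (edgeR adjusted p = 0.00393) and 0.31 ± 0.06 (edgeR adjusted p = 0.000172). Letter B alone gave 0.07 ± 0.07 (edgeR adjusted p = 0.471). The near-zero difference over all libraries was thus a mean of letters that went opposite ways.

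**Figure D3:**
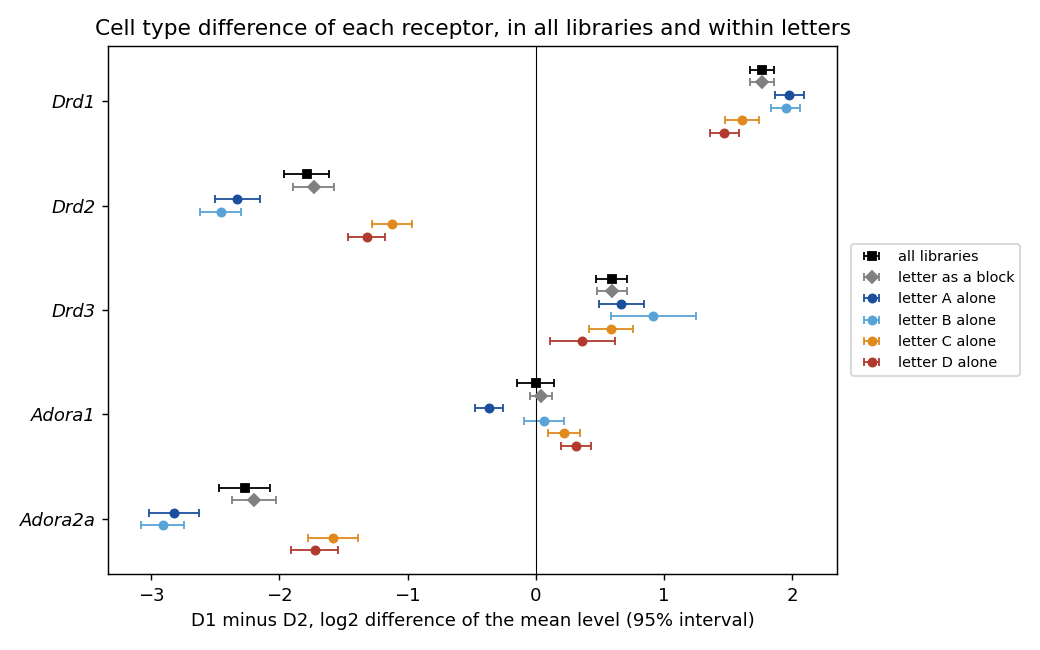
Log2 difference of the mean level, D1 minus D2, with 95% intervals for each receptor, in all libraries, with letter as a block and within letters A to D. Drd1, Drd2, Drd3 and Adora2a stay on their side of 0 in each letter, whereas Adora1 lies at -0.36 in letter A and at 0.31 in letter D.

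The levels behind these differences were compared between letters in each cell type. Adora2a was 315.5 to 621.9 CPM (median 496.4) in the 22 D2 libraries of letters A and B, and 176.0 to 300.9 CPM (median 244.4) in the 24 of letters C and D. These ranges did not overlap, as was the case for 16.9% of all genes (2419), while in D1 libraries the medians were 68.8 CPM for A and B and 69.4 CPM for C and D. Adora1 likewise had no overlap in D2, at 104.7 to 163.2 CPM (median 136.4) in A and B and 60.6 to 93.1 CPM (median 81.0) in C and D. Drd2 in D2 libraries had medians of 189.8 CPM in A and B and 101.1 CPM in C and D, with overlap. Drd1 went the other way in D2 libraries, with medians of 83.5 CPM in A and B and 93.5 CPM in C and D. In D1 libraries Drd1 had medians of 348.4 CPM in A and B and 277.7 CPM in C and D.

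Letters differed in D2 libraries for all 5 receptors (85.6% of all genes were called), with edgeR adjusted p of 2.77e-20 for Adora2a, 1.17e-20 for Adora1, 2.20e-18 for Drd2, 0.000124 for Drd1 and 0.0476 for Drd3. In D1 libraries 2 of 5 passed (58.4% of all genes), Drd1 with 0.000222 and Adora1 with 5.00e-05. Drd2, Drd3 and Adora2a had edgeR adjusted p of 0.225, 0.503 and 0.468 there. Depth moved with the letters in D2 libraries, where mean total counts were 19727033 in A, 16241681 in B, 11336342 in C and 10904585 in D. In D1 libraries the mean totals were 15452263, 14848957, 14369976 and 11833152 in the same order. The part of depth, and of whatever the letters mark, in these levels was not tested.

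Within D2 libraries Drd2 and Adora2a varied together. The letters form separate clusters for these genes, so the relation is given within letters, on log2(CPM + 1), with p adjusted over 24 such relations. In letter A Pearson's r was 0.97 and Spearman's rho 0.87 (permutation p adjusted 0.00024, n = 12), and r was 0.87 without the 2 libraries farthest from the median. Letter B gave r = 0.98 and rho = 0.90 (permutation p adjusted 0.00024, n = 10), and r = 0.90 without 2 libraries. In letter D r was 0.77 and rho 0.82 (permutation p adjusted 0.0315, n = 12), and r = 0.80 without 2. Letter C gave r = 0.61 and rho = 0.65, which did not pass (permutation p adjusted 0.0939, n = 12), and r = 0.51 without 2. Each pair of values shares its library and depth.

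Adora1 was set against Drd2 and Adora2a within D2 letters too. Its r with Drd2 was 0.15, 0.76, 0.18 and -0.47 in letters A, B, C and D. Of these, letter B passed (rho = 0.84, permutation p adjusted 0.0464, r = 0.62 without 2 libraries). Its r with Adora2a was 0.07, 0.74, 0.64 and 0.0022 in the same letters, and none passed (permutation p adjusted 0.0582 to 0.995). With each letter's mean removed, r of Adora1 with Adora2a was 0.42 over the D2 libraries and passed (rho = 0.34, permutation p adjusted over 6 relations 0.0108, n = 46, r = 0.39 without 2 libraries). That of Adora1 with Drd2 was 0.28 and did not pass (rho = 0.26, permutation p adjusted 0.0940). In D1 libraries Drd1 and Adora1 had r = 0.46 and rho = 0.52 (permutation p adjusted over 6 relations 0.00217, n = 45), and r = 0.62 without 2 libraries. With each letter's mean removed r was 0.23 (rho = 0.35, permutation p adjusted 0.165 for r). Within letters A, B, C and D r was 0.42, -0.45, 0.75 and 0.47, and of these letter C passed (rho = 0.66, permutation p adjusted over 24 relations 0.0323, n = 12, r = 0.78 without 2 libraries). Without the 3 male D1 libraries that stood apart r was 0.62 over all letters (rho = 0.65, permutation p adjusted 3.0e-05, n = 42). Drd3 had r = 0.33 with Drd1 (rho = 0.21, permutation p adjusted 0.0311, r = 0.25 without 2) and r = 0.10 with Adora1 (rho = 0.07, permutation p adjusted 0.516, r = -0.05 without 2) in D1 libraries. With each letter's mean removed r of Drd1 and Drd3 was 0.29 (permutation p adjusted 0.0940). Within letters A, B, C and D it was 0.44, -0.55, 0.45 and 0.79. None of these passed (permutation p adjusted over 24 relations 0.0735 to 0.253). In the same letters rho was 0.48, 0.08, 0.41 and 0.45, and r without 2 libraries was 0.14, 0.87, 0.008 and 0.20. The values within letters thus hung on few libraries. Without the 3 male D1 libraries that stood apart r of Drd1 and Drd3 was 0.52 over all letters (rho = 0.31, permutation p adjusted 0.0014, n = 42).

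By likeness over all 91 libraries, Drd2 and Adora2a were each other's closest gene among about 9808 candidates of at least 10 CPM, with r = 0.99. The gene closest to Drd1 was ENSMUSG00000050473 (r = 0.99), with means of 56.0 CPM in D1 and 13.0 CPM in D2. Closest to Adora1 was ENSMUSG00000032549 (r = 0.94), with means of 484.9 CPM in D1 and 447.6 CPM in D2. The closest gene of Drd3 reached r = 0.79. These values describe libraries that share cell type, letter and depth.

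The next question was whether the receptors follow a daily rhythm. None of the 5 passed the test of a 24 h cosine in D1 neurons, where 0.495% of all genes (71) did, or in D2 neurons, where 2.94% (422) did. In D1 neurons the highest mean of each of the 5 was at ZT2, by little for Drd1 (339.1 against 337.1 CPM at ZT6) and Drd3 (12.3 against 12.2 CPM at ZT6). How many of all genes have their highest D1 mean at ZT2 was not counted. The largest amplitude (log2 height of the peak over the mean) was that of Adora2a at 0.17 ± 0.07 (SE, edgeR adjusted p = 0.430). Drd1 had 0.14 ± 0.06 (0.446), Drd2 0.11 ± 0.06 (0.588), Adora1 0.08 ± 0.05 (0.600) and Drd3 0.07 ± 0.07 (0.792), with the edgeR adjusted p in parentheses. The median amplitude was 0.11 over the 5 receptors and 0.09 over all genes in D1, and 0.31 over the genes called.

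Levels in D1 libraries are given for each time. Adora2a averaged 93.5 ± 23.2, 67.4 ± 9.26, 62.3 ± 5.77, 78.7 ± 28.7, 67.8 ± 9.51 and 77.9 ± 20.4 CPM at ZT 2, 6, 10, 14, 18 and 22 (SD, 6 to 8 libraries). Drd1 averaged 339.1 ± 64.7, 337.1 ± 47.4, 290.3 ± 74.7, 297.0 ± 65.0, 283.8 ± 41.9 and 279.4 ± 47.1 CPM at the same times. For every receptor in both cell types, the ranges of all 15 pairs of times overlapped. Drd2 averaged 47.9 ± 9.60 CPM in D1 at ZT2, its highest, and 36.6 ± 2.76 CPM at ZT10, its lowest. Adora1 and Drd3 lay between 101.4 and 117.2 CPM and between 10.9 and 12.3 CPM at their lowest and highest times in D1.

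D2 libraries had amplitudes of 0.13 ± 0.10 for Drd2 (SE, edgeR adjusted p = 0.990), 0.06 ± 0.11 for Adora2a, 0.05 ± 0.05 for Drd3, 0.04 ± 0.09 for Adora1 and 0.01 ± 0.03 for Drd1 (edgeR adjusted p = 1.00 for these 4). Mean levels ran from 344.8 ± 120 CPM at ZT6 to 371.5 ± 152 CPM at ZT18 for Adora2a and from 124.7 ± 46.1 CPM at ZT6 to 152.0 ± 55.7 CPM at ZT18 for Drd2. Drd1 in D2 stayed between 87.8 ± 8.30 and 91.3 ± 8.02 CPM. With the letter as a block, 22.3% of all genes (3198) were called rhythmic in D2 and none of the 5 receptors. The smallest edgeR adjusted p of the 5 under the block was 0.134, for Drd2, with an amplitude of 0.10 ± 0.04. In D1 the block gave 1.13% of all genes and again none of the receptors. In letter B alone Drd1 passed in D1 (amplitude 0.38 ± 0.07, edgeR adjusted p = 0.0133), where 29.0% of all genes did. That fit rests on 9 libraries, 2 of which stood apart. In D2 no receptor was called within letter A, B, C or D alone, where 0%, 1.08%, 1.94% and 1.39% of all genes were.

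**Figure D4:**
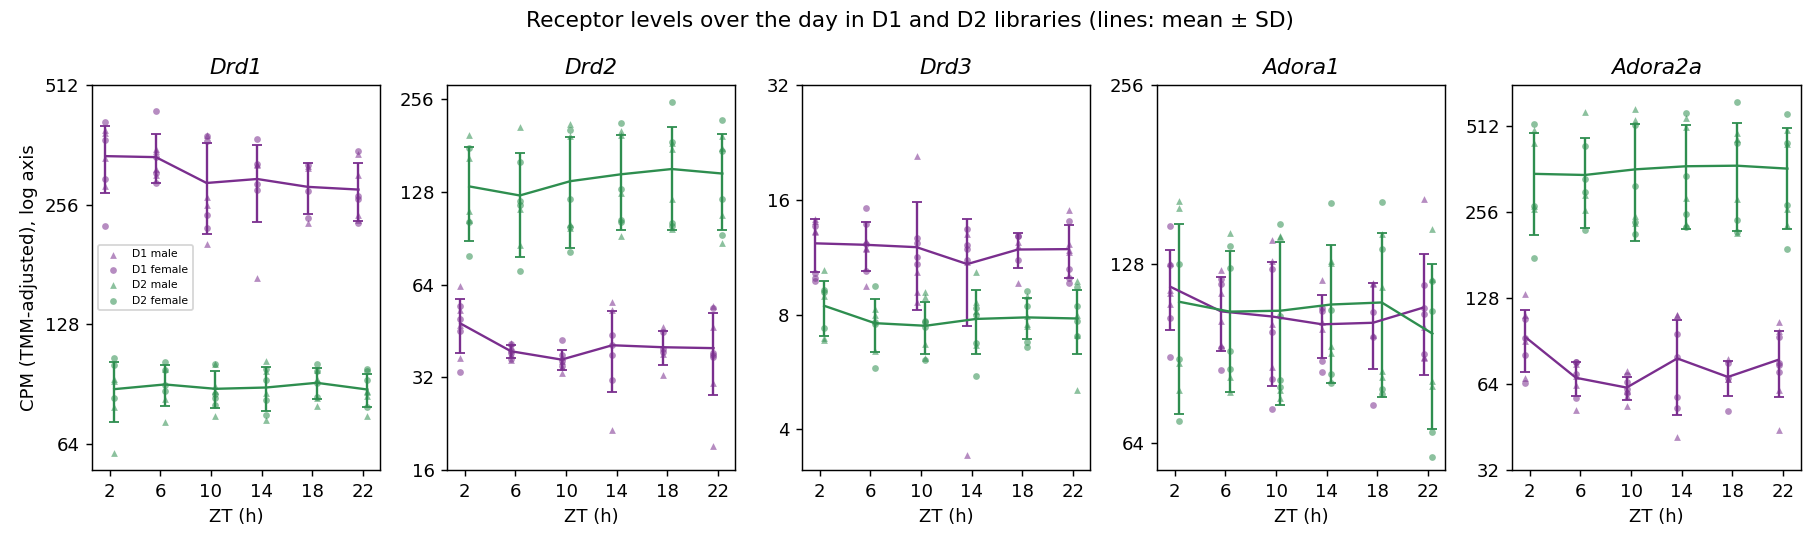
Level of each receptor in CPM on a log axis against ZT, with D1 in purple and D2 in green, triangles for male and circles for female libraries, and lines for mean ± SD. The ranges of every pair of times overlap within a cell type, while D1 and D2 stay separate at every time for Drd1, Drd2 and Adora2a.

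Ordered by median over the 12 combinations of cell type and time, Drd1 lay highest at 353.7 CPM in D1 at ZT2 and lowest at 86.5 CPM in D2 at ZT10. Drd2 lay lowest at 36.3 CPM in D1 at ZT10 and highest at 148.9 CPM in D2 at ZT18, and Adora2a lowest at 61.0 CPM in D1 at ZT10 and highest at 365.2 CPM in D2 at ZT18. For these 3 genes the neighbours in order overlapped except at the step between cell types. For Drd3 and Adora1 every pair of neighbours overlapped. The rhythm itself did not pass a test of a difference between D1 and D2 for any of the 5, where 0.0139% of all genes (2) passed, nor with the letter as a block, where 0.529% did. Without the block the edgeR adjusted p ran from 0.659 for Drd1 to 0.912 for Drd3. Letter B alone called Drd1 (amplitude of the difference 0.45 ± 0.09, edgeR adjusted p = 0.0030), where 38.6% of all genes were called. That fit includes the male D1 libraries at ZT10 and ZT22 that stood apart. Letters A, C and D alone called no receptor and 0% of all genes.

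The last question was whether the receptors differ by sex. None of the 5 passed in D1 neurons, where 0.0418% of all genes (6) did, or in D2 neurons, where 0.216% (31) did. Adora1 in D1 libraries ranged from 85.8 to 164.6 CPM in males (median 112.0) and from 73.2 to 148.6 CPM in females (median 103.9). Its log2 difference, male minus female, was 0.14 ± 0.07 (SE, 95% interval -0.01 to 0.28, edgeR adjusted p = 0.353). The other 4 in D1 had differences of -0.05 for Drd1, 0.01 for Drd2, -0.01 for Drd3 and 0.08 for Adora2a, and the sexes overlapped. Their 95% intervals reached -0.21 to 0.12, -0.18 to 0.19, -0.20 to 0.18 and -0.14 to 0.29.

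In D2 libraries Drd1 ranged from 60.8 to 103.3 CPM in males (median 86.7) and from 75.8 to 105.2 CPM in females (median 92.6). Its difference was -0.10 ± 0.05 (SE, 95% interval -0.19 to 0.0023, edgeR adjusted p = 0.926). Differences of 0.11 for Drd2, 0.04 for Drd3, 0.09 for Adora1 and 0.13 for Adora2a had the same edgeR adjusted p of 0.926. Their 95% intervals were -0.18 to 0.40, -0.11 to 0.18, -0.15 to 0.34 and -0.19 to 0.46. With the letter as a block the Adora2a interval in D2 was 0.03 to 0.25 and that of Drd1 -0.17 to -0.02, with edgeR adjusted p of 0.0931 and 0.0869. The block called 9.45% of all genes in D2 and 7.26% in D1, and none of the receptors in either. Adora1 in D1 had a difference of 0.16 ± 0.05 under the block (edgeR adjusted p = 0.0621).

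Within letters A, C and D alone no receptor passed the sex test in either cell type, where 0.00697%, 0.0139% and 0.0279% of all genes passed in D1 and 0.118%, 0.181% and 0.132% in D2. Letter B alone called 4 of 5 in D1 (37.6% of all genes) and 3 of 5 in D2 (17.7% of all genes). In letter B the fitted means of Drd1, Drd2 and Adora2a were lower in male D1 libraries, by log2 differences of -0.58, -0.67 and -0.63. That of Adora1 was higher by 0.39. In D2 the same letter gave -0.30 for Drd1, 0.30 for Drd2 and 0.31 for Adora2a. The male D1 libraries of letter B lacked ZT14 and ZT18 and the female ones lacked ZT18. Among the D2 libraries of letter B, the male ones lacked ZT6 and the female ones lacked ZT2. The fitted means of letter B in both cell types thus extend over times without a library, and the sizes depend on the cosine form. Letter B held 4 male and 5 female D1 libraries, and 2 of the 4 male ones stood apart. Whether those libraries account for the D1 values in letter B was not tested.

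Neither the sex difference between cell types nor the rhythm difference between sexes passed for any receptor over all letters, and edgeR called 0% of all genes in these tests. At an unadjusted p below 0.05 there were 908 genes for the sex difference between cell types, 226 for the rhythm between sexes in D1 and 389 in D2. DESeq2 called 21, 0 and 2 genes in the same tests, none of them a receptor. With the letter as a block edgeR called 0.00697%, 0% and 0.0209% of all genes and again no receptor. Letter B alone called 3 of 5 receptors for the sex difference between cell types, where 39.6% of all genes were called. These were Drd1 (-0.30, edgeR adjusted p = 0.0379), Drd2 (-0.99, edgeR adjusted p = 0.00024) and Adora2a (-0.96, edgeR adjusted p = 0.00038). For the rhythm difference between sexes in D1 letter B alone called Drd1 (amplitude 0.66 ± 0.12, edgeR adjusted p = 0.0140), where 24.7% of all genes were called. In D2 it called no receptor and 0.0836% of all genes. The letter B fits that include D1 rest on 4 male D1 libraries, at ZT 2, 6, 10 and 22. Of these, the libraries at ZT10 and ZT22 stood apart. Letters A, C and D alone called no receptor in these tests, with at most 0.0279% of all genes.

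**Figure D5:**
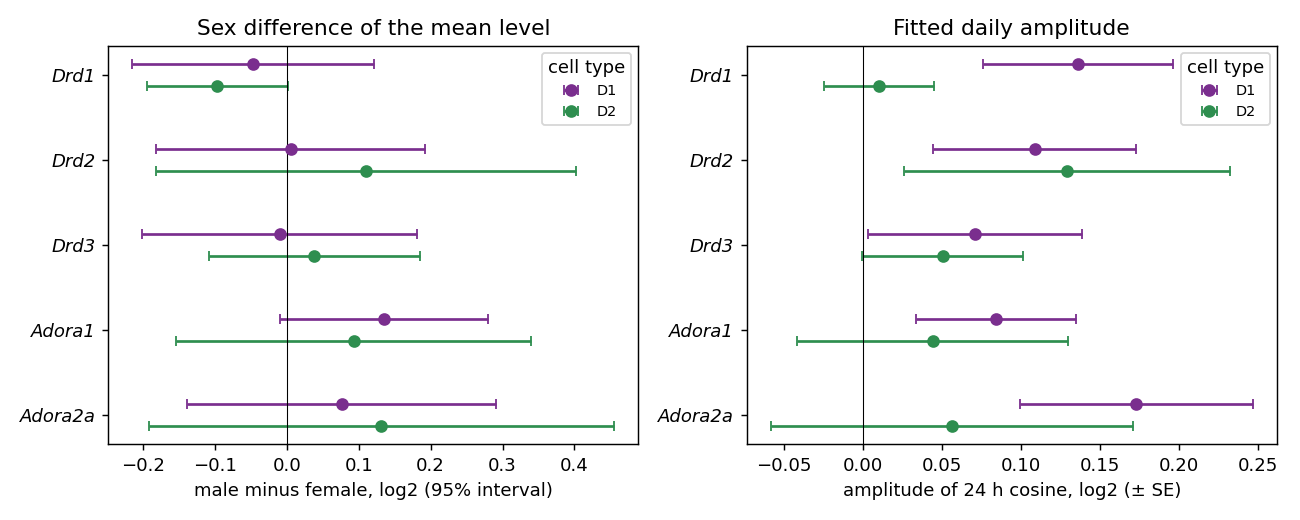
Left, log2 difference of the mean level, male minus female, with 95% intervals; right, fitted amplitude of the 24 h cosine on the log2 scale ± SE, for each receptor in D1 (purple) and D2 (green). The fits shown have no term for the letter. In them every sex interval includes 0, and the largest amplitude is 0.17 for Adora2a in D1. With the letter as a block, not shown, the sex intervals of Adora2a and Drd1 in D2 exclude 0.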

How the data were processed

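Ribosome-bound mRNA of D1 and D2 neurons was measured in 91 libraries. The deposited values are whole read counts for each gene, with no normalisation by the authors. FastQC 0.11.7, HISAT2 and HTSeq 0.10.0 are named in the submitters' processing notes, as are the builds GRCm38 and GRCh38, without a role. Per its name the file holds genes filtered by log CPM, with a limit not given in the sources used here. Identifiers come without gene names, and 0 of 49997 entries of the reference table carry an Ensembl identifier. The 5 receptors are therefore named by the rule that chose them, and the lists of cell type markers and pathway genes could not be scored.

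The tests used edgeR 4.0.16 in R 4.3.3 (TMM, quasi-likelihood F-test, Benjamini-Hochberg over all 14355 genes, threshold 0.05). The model had a mean and 24 h cosine and sine terms for every combination of sex and cell type. Tests between cell types used all libraries, and the others used the libraries of 1 cell type. The counts of Adora2a and Drd2 had 0.5 added before their log2 ratio. Scripts were tested on simulated data. The members, gene lists and tests were chosen with earlier results of these data known. All 5 receptors were named in each comparison. Genes of like pattern were the closest by Pearson's r of log2(CPM + 1) among those with at least 10 CPM, and identifiers without a name were limited to 2.

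Letters were checked as pairs through correlations of deviations from group means. In D2 all 243 pairs of the same letter exceeded 0.1 (lowest 0.19, median 0.72), so letters were taken to pair D2 libraries. In D1 66.8% of 223 pairs did (lowest -0.61, median 0.20), so they were not. Levels still differed between letters in D1 for 58.4% of all genes. The main fits held no term for the letter in either cell type, so their D2 standard errors and p-values leave this pairing out. The fits of 1 cell type with the letter as a block include it. In tests between cell types the block gave each letter 1 term shared by D1 and D2. Those tests therefore do not hold a letter effect that is particular to D2. No library copied another of its group: the lowest mean chi-square per gene over 129 pairs was 4.24. All 91 columns had a sample. Alternatives were DESeq2 1.42.0, a least squares cosinor with limma 3.58.1, RLE size factors, filterByExpr, the letter as a block, leaving out each letter or 3 libraries, depth as a covariate and time as a factor. Fits within each letter were added after the data were seen.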

Additional observations from a re-analysis of the deposited data

Results flagged for a closer look

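Within 95 sets of 4 libraries of the same cell type, sex and time (5 receptors, 19 groups), 4 sets (4.21%) held a library far from the other 3 by Dixon's test, and chance gives about 1 in 20. All were D1 libraries. Drd2 was 53.9 CPM in the female ZT22 library of letter E, against 37.3 to 38.6 CPM in the others. Drd3 was 13.6 CPM in the female ZT2 library of letter A, against 9.81 to 10.3 CPM. Drd3 was 20.8 CPM in the male ZT10 library of letter B, against 8.65 to 10.3 CPM, and Adora1 was 165 CPM in the male ZT22 library of letter B, against 89.1 to 100.2 CPM. The last 2 are libraries that stood apart by their number of genes at 0. Groups of 3 libraries were not tested. One of them, male D1 at ZT14, held the library of letter D with the lowest D1 values of Drd1 (167.4 CPM), Drd3 (3.42 CPM) and Adora2a (41.7 CPM).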

How the results depend on the processing

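The number of receptors called was the same as in the text in each of 118 alternatives over 9 tests. In fits within letters A, C and D alone, 5 receptors rather than 4 were called between cell types. The differences of Drd1, Drd2, Drd3 and Adora2a between cell types kept direction and call in all alternatives run, and the log2 ratio of Adora2a to Drd2 in 11 of 11. Leaving out a letter in turn gave -0.50 to -0.47 for that ratio.

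Adora1 had no stable sign between cell types. Its D1 minus D2 difference was 0.00073 with RLE size factors, 0.0013 with DESeq2, 0.0025 with time as a factor, 0.032 with depth as a covariate and 0.041 with the replicate block, or 0.038 with the block and without the 3 male D1 libraries. Leaving out a letter gave -0.083 to 0.16, and letters A, B, C and D alone gave -0.36, 0.066, 0.22 and 0.31. In letters A, C and D it passed the test. The cause was not tested.

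Of 519 checks of single genes in the other tests, 26 changed sign, all of them sex differences that were not called. Leaving out a letter gave, between cell types, -0.038 to 0.10 for Drd1, -0.22 to 0.043 for Drd2, -0.16 to 0.0036 for Drd3, -0.0029 to 0.072 for Adora1 and -0.20 to 0.12 for Adora2a. In D1 it gave -0.14 to 0.064 for Drd1, -0.13 to 0.092 for Drd2, -0.051 to 0.072 for Drd3 and -0.079 to 0.19 for Adora2a, and in D2 -0.016 to 0.084 for Drd3. Without the 3 male D1 libraries the difference between cell types was -0.0072 for Adora1 and 0.012 for Adora2a, and with the replicate block as well 0.016 for Drd2 and 0.076 for Adora2a. That fit gave 0.026 for Drd1 in D1. With depth as a covariate the values were 0.097 for Drd2 and 0.19 for Adora2a between cell types, 0.075 for Drd1 in D1, and -0.013, -0.0052 and -0.0047 for Drd2, Adora1 and Adora2a in D2. For Drd2 in D1 RLE size factors gave -0.00010 and DESeq2 -0.0010.

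The correlations changed sign in 5 of 39 checks. In letter B alone r was -0.55 for Drd1 and Drd3 and -0.45 for Drd1 and Adora1 in D1. Without 2 libraries these were 0.87 and 0.02. Drd3 and Adora1 in D1 gave -0.22 in letter A and -0.013 without the 3 male D1 libraries. Drd2 and Adora1 in D2 gave -0.47 in letter D. The replicate block changed no call of a receptor in any of the 9 tests. Drd3, with as few as 35 reads in a library, has the fewest reads of the 5.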
